A study of Mus musculus with 4 samples.

Results

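The IRG and GBP genes encode interferon-inducible GTPases, and 10 of them were described here in islet effector T cells sorted by surface CD5. They are Igtp, Irgm1, Irgm2, Iigp1 and Ifi47 of the immunity-related GTPase (IRG) family and Gbp2, Gbp3, Gbp4, Gbp6 and Gbp7 of the guanylate-binding protein (GBP) family. A member was any gene of this name list with a tested row in the authors' comparison of CD5 high with CD5 low cells, and all 10 of the 10 names had such a row, among 7252 tested rows in all. The members were chosen by gene name with the FPKM values of this same comparison known, so the members' values and their differences are given as a description and support no inference about the family.

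The cells were effector T cells with high CD5 and effector T cells with low CD5, with 2 libraries in each group. Both groups came from NOD mice of the genotype NOD.Foxp3-GFP, aged 6 to 9 weeks, a strain prone to autoimmune diabetes that carries a fluorescent reporter of the regulatory T cell factor Foxp3. The tissue field of the labels names pancreatic islets and spleen, and the titles point to islets. The labels do not say whether cells of several mice were pooled or whether libraries with the same number share animals. CD5 is a T cell surface glycoprotein whose level is widely read as a measure of how strongly a T cell sees self-peptide.

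Interferon gamma binds its receptor, activates the Janus kinases Jak1 and Jak2, and through transcription factors such as Irf1 switches on the IRG and GBP genes from promoter elements to which these factors bind. Effector IRG proteins and GBPs collect on the vacuoles of intracellular pathogens and help to break them open, while the regulatory IRG proteins sit on the membranes of the cell itself and hold the effectors inactive there. Both families are strongly expressed in macrophages exposed to interferon gamma, and T cells express them as well. In mice, Irgm1 is known to protect CD4 effector T cells from death after interferon gamma exposure.

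The promoters are shown first, and those of Igtp and Irgm2 are alike over most of the window. Whether promoter sequence bears on the members' values was not tested. The sequences are from RefSeq (build GRCm38.p6, which is the mm10 assembly of the files), run from 250 bases before to 50 bases after the annotated start, and read 5′ to 3′ along the gene. Capitals mark matches, on either strand, to a core spelling of the interferon-stimulated response element (ISRE), which is GAAA, any 2 bases and GAAA again, and to TTCNNNGAA, a spelling of the gamma-activated sequence (GAS), which reads the same on both strands.
Igtp, chr11:58199306-58199605, plus strand: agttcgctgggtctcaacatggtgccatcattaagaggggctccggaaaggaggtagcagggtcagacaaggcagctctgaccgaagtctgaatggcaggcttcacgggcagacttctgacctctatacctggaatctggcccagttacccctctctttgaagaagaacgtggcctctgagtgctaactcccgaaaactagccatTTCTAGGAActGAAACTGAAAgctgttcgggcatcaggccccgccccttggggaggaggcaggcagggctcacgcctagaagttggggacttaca
Irgm2, chr11:58214727-58215026, plus strand: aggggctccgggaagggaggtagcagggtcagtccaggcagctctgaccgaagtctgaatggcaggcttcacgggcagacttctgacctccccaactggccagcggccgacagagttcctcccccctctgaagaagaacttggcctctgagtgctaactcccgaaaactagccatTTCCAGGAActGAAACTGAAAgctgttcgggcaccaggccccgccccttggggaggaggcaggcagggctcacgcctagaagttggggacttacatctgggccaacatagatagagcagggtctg
Irgm1, chr11:48871371-48871670, minus strand: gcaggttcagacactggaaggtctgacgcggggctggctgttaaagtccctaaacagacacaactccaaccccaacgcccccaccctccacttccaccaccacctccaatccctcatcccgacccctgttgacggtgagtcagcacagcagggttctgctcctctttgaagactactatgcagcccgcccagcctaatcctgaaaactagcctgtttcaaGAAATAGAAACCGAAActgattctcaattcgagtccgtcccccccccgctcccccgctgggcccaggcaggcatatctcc
Gbp7, chr3:142530086-142530385, plus strand: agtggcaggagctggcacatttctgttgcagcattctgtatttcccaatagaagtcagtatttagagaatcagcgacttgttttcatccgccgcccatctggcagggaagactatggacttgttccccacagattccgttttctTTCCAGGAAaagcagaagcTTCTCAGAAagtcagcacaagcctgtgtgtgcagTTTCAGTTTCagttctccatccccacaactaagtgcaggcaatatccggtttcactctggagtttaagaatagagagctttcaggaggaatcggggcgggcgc
Gbp3, chr3:142559794-142560093, plus strand: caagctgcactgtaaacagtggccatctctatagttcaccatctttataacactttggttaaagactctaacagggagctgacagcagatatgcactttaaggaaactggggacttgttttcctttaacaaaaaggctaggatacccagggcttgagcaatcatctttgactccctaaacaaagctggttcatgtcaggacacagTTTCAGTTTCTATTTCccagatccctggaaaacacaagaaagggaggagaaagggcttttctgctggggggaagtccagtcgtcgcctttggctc

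Igtp and Irgm2 share a stretch of 271 aligned bases in these windows with 91.1% identity, with an unbroken identical run of 61 bases. Among all 45 pairs of the 10 promoters compared, which were those of 7 members and of the related genes Gm12250, 9930111J21Rik1 and Gbp1, no other pair had an identical run of 20 bases or more. The next best pairs were tied: Igtp with Irgm1 and Irgm2 with Irgm1 each aligned over 52 bases at 78.8% identity. In the Igtp window the ISRE match is GAAACTGAAA, starting 34 bases before the annotated start, and the TTCNNNGAA match is TTCTAGGAA, starting 45 bases before it. The Irgm2 window holds the same GAAACTGAAA at 64 bases and TTCCAGGAA at 75 bases before its annotated start. Irgm1 has GAAATAGAAA and GAAACCGAAA, which overlap each other.

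Of the 7 members whose promoters were analysed, 6 held the ISRE spelling, a motif found in 3.44% of all 32851 promoters of that length. TTCNNNGAA was present in 3 of the 7, against 8.30% of all promoters. Both motifs together occurred in Igtp, Irgm2 and Gbp7, and in 0.454% of all promoters. The Ifi47 window held neither spelling, and the second of 2 annotated Gbp3 starts also held neither. At its first annotated start, Gbp3 had 2 overlapping ISRE matches on the opposite strand. The promoters of Gbp4, Gbp6 and Iigp1 are not analysed here. A match describes the letters in the window and does not show that a factor binds there.

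The authors' deposited table gives 1 FPKM value per group (fragments per kilobase of transcript, scaled to the mapped fragments), combined over the libraries, so the values carry neither SD nor n, and how deeply the libraries were sequenced is unknown. In bulk cells a lower value from fewer cells of a type and from less RNA per cell cannot be told apart. The ratio is CD5 high over CD5 low on the log2 scale, without a pseudocount, and a gene is said to have risen or fallen where the authors' q-value was under 0.05, as it was for 0.758% of all tested rows, 0.221% lower and 0.538% higher in CD5 high. Libraries singly were not analysed here.

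Igtp fell in CD5 high cells and was the most abundant of the 10 members in both groups. Its level was 137 FPKM in CD5 high, against 230 FPKM in CD5 low in the authors' deposited table (a log2 ratio of -0.75, a 1.68-fold fall with q = 0.0110). The other 9 members did not pass the authors' test; 8 of them had lower values in CD5 high and Gbp3 a higher one. The median log2 ratio of the 10 members was -0.26, beside -0.01 over all tested rows, and 9 of 10 had the lower value in CD5 high, as did 50.9% of all tested rows. The members' ratios came from the comparison by which they were chosen, so the count is not evidence for a shift of the family.

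**Figure D1:**
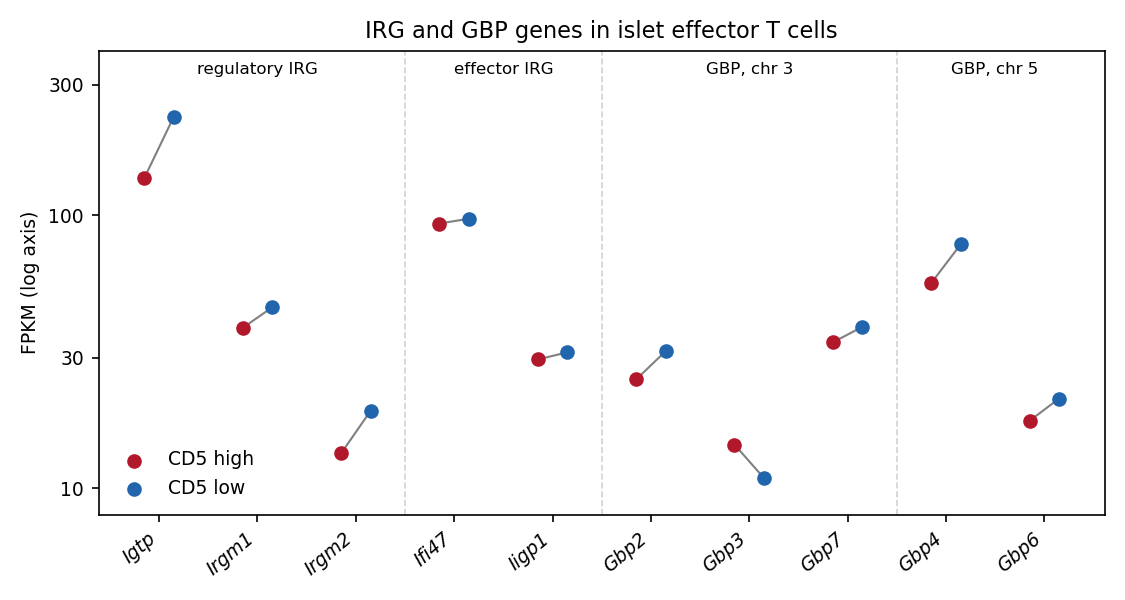
FPKM of the 10 members on a log axis, with the CD5 high value (red, left) joined to the CD5 low value (blue, right) of each gene and 1 combined value per group, so no error bars. Igtp stands highest in both groups, at 137 FPKM in CD5 high and 230 FPKM in CD5 low, and Gbp3 is the member whose line runs the other way.

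Igtp, also named Irgm3, encodes a regulatory IRG protein of the endoplasmic reticulum that is required in mice for resistance to Toxoplasma. Its level exceeded that of 92.1% of tested rows in CD5 high and of 94.9% in CD5 low. The authors' p-value of 5e-05 is the smallest in the deposited table and is shared by 33 rows. Among the 15 genes that fell with a finite ratio, Igtp was 14th by size of the fall, so its fold was modest beside the other called genes, and 3.70% of tested rows had a lower ratio. Igtp lies on chromosome 11 at 58199556 to 58207592 in the authors' table (mm10), and GENCODE M21 gives it as ENSMUSG00000078853, a protein-coding gene on the plus strand.

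Irgm2 encodes a second regulatory IRG protein, which in mouse macrophages restrains the noncanonical inflammasome. In the authors' deposited table it had 13.4 FPKM in CD5 high, against 19.2 FPKM in CD5 low (log2 ratio -0.52, q = 0.520). It was the least abundant IRG member in both groups and its difference did not pass the test. In GENCODE M21 the Irgm2 gene model begins inside Igtp and the models overlap over 7974 bases on the same strand, although the authors' row for Irgm2 spans only 58214977 to 58222783, beyond the end of Igtp. Of the 50-base words in Igtp protein-coding transcripts, 11.8% also occur in Irgm2 transcripts. Words from the overlap of the models were not separated from sequence present at both places. How far shared sequence affects the authors' values of these genes is therefore unknown.

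Irgm1, the third regulatory IRG gene, had 38.7 FPKM in CD5 high, against 46.0 FPKM in CD5 low, in the authors' deposited table (log2 ratio -0.25, q = 0.772). It lies at 48865249 to 48871346 on chromosome 11, far from the Igtp locus, and 0.956% of its 50-base words occur in another gene. The summed level of the 3 regulatory genes was 189 FPKM in CD5 high and 295 FPKM in CD5 low, of which Igtp makes up most.

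The effector IRG members differed little between the groups. Ifi47, which encodes Irgd, had 93.2 FPKM in CD5 high, against 97.0 FPKM in CD5 low (log2 ratio -0.06, q = 0.963 in the authors' deposited table). Iigp1, which encodes Irga6, a protein that assembles on the Toxoplasma vacuole, had 29.6 FPKM in CD5 high, against 31.4 FPKM in CD5 low (log2 ratio -0.09, q = 0.943 in the same deposited table of the authors). Ifi47 was thus the second most abundant member in CD5 high and in CD5 low, with a ratio near that of the median tested gene. The authors' row for Ifi47 spans 97.7 kb, against 20.4 kb for the annotated gene. In GENCODE M21 the Olfr56 model covers all of this span on the same strand. The span also overlaps 9930111J21Rik2 and Tgtp2, another IRG gene, both on the other strand. Which transcripts the Ifi47 value counts is therefore uncertain.

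Of the GBP members, Gbp4 was the most abundant, with 56.3 FPKM in CD5 high, against 78.2 FPKM in CD5 low (log2 ratio -0.47, q = 0.347 in the authors' deposited table). Gbp4 and Igtp were the 2 members with an unadjusted p under 0.05 (0.0156 for Gbp4), a limit passed by 10.3% of all tested rows, 4.7% lower and 5.58% higher in CD5 high. Gbp6, on chromosome 5 as well, had 17.6 FPKM in CD5 high, against 21.3 FPKM in CD5 low (log2 ratio -0.27, q = 0.753 in the authors' deposited table). Its value is uncertain by sequence: 90.2% of the 50-base words of Gbp6 occur in the overlapping gene model Gm43302, and 62.3% occur in Gbp10. For Gbp4, 11.9% of the 50-base words occur in any other gene. The GENCODE M21 models of Gbp8 and Gbp9 overlap Gbp4 on the same strand, over 23774 and 23773 bases. The authors' rows for Gbp8 and Gbp9 end before Gbp4 begins.

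The GBP members on chromosome 3 lay on both sides of 0. Gbp2, a prenylated GBP that is needed in mice to control Toxoplasma, had 25.03 FPKM in CD5 high, against 31.8 FPKM in CD5 low (log2 ratio -0.34, q = 0.687 in the authors' deposited table). Gbp7, which in mouse macrophages has been linked to assembly of the phagocyte oxidase, had 34.2 FPKM in CD5 high, against 39.0 FPKM in CD5 low (log2 ratio -0.19, q = 0.802 in the authors' deposited table). Gbp3, a GBP found on pathogen vacuoles, had 14.5 FPKM in CD5 high, against 10.9 FPKM in CD5 low (log2 ratio 0.41, q = 0.714 in the authors' deposited table). Gbp3 was the least abundant member in CD5 low, and Irgm2 was in CD5 high. The share of 50-base words found in other genes was 2.07% for Gbp2, all with Gbp1, 3.83% for Gbp3, chiefly with Gbp7, and 12.7% for Gbp7, chiefly with the pseudogene Gm43802.

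Ranked by level in CD5 high, the members ran Igtp, Ifi47, Gbp4, Irgm1, Gbp7, Iigp1, Gbp2, Gbp6, Gbp3 and Irgm2, and in CD5 low the order differed only in the places of Gbp2 and Iigp1 and of Irgm2 and Gbp3. Without a spread over libraries, it cannot be said which neighbours in this order differ. The highest member exceeded the lowest 10.2-fold in CD5 high and 21.1-fold in CD5 low. The summed level of the 10 members was 459 FPKM in CD5 high and 604 FPKM in CD5 low, and Igtp alone made up 64.0% of that difference. Without Igtp the sums were 323 FPKM in CD5 high and 375 FPKM in CD5 low, and the median log2 ratio of the other 9 was -0.25. Igtp contributed 29.8% of the summed level in CD5 high and 38.0% in CD5 low.

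**Figure D2:**
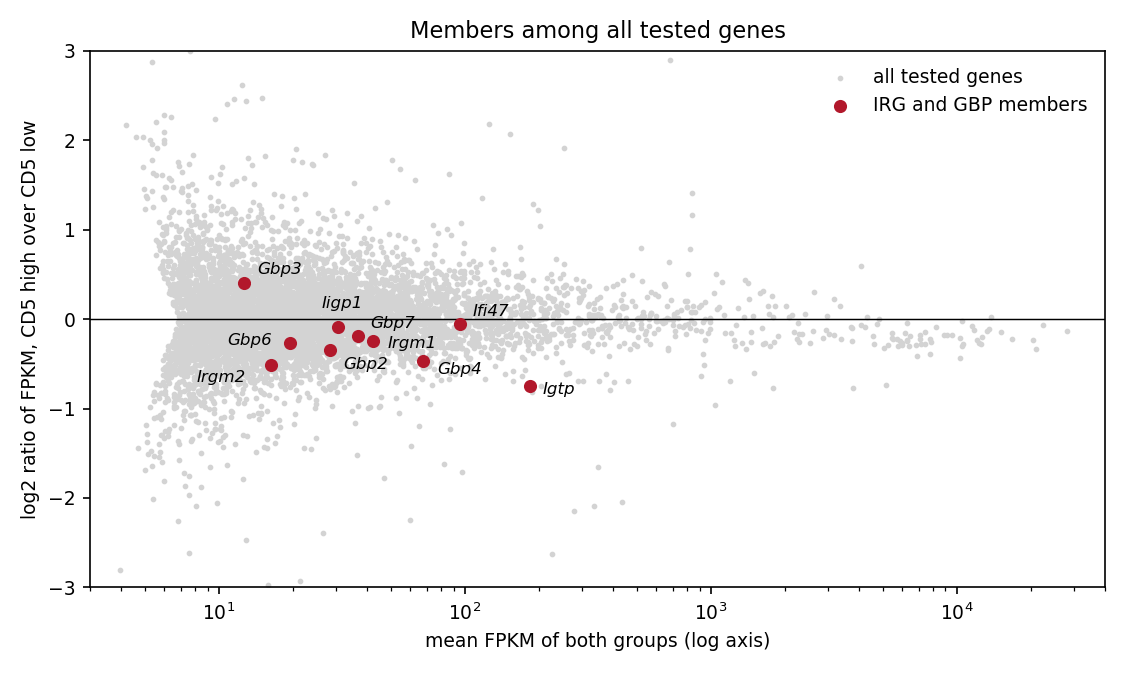
Log2 ratio of FPKM, CD5 high over CD5 low, against mean FPKM on a log axis for all tested genes with a finite ratio (grey; 17 lie outside the drawn range) and the 10 members (red). Igtp, at -0.75, has the lowest ratio and the highest mean of the members, and Gbp3, at 0.41, is the one above 0.

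Along the chromosomes, the tested row next to Igtp on the side away from Irgm2 is Gm12250, which encodes the effector Irgb10 and which GENCODE M21 lists as a processed pseudogene. Its values were 12.2 FPKM in CD5 high and 18.8 FPKM in CD5 low (log2 ratio -0.63, unadjusted p = 0.0473, q = 0.479 in the authors' deposited table). The 3 adjacent rows Gm12250, Igtp and Irgm2 thus had ratios between -0.75 and -0.52, and only Igtp passed the authors' test. The tested row on the other side, the zinc finger gene Zfp692, lay 84.3 kb beyond Irgm2. It had 13.8 FPKM in CD5 high and 12.2 FPKM in CD5 low (log2 ratio 0.18, q = 0.913 in the authors' deposited table). The row beyond Gm12250 is not described here, so the extent of the lower values on that side is not shown. In the Irgm1 cluster of the same chromosome, the IRG gene 9930111J21Rik1 lay between Irgm1 and Ifi47 with 20.6 FPKM in CD5 high and 24.3 FPKM in CD5 low (log2 ratio -0.24, q = 0.779 in that deposited table of the authors). It shares 83.2% of its 50-base words with other genes, above all with its duplicate 9930111J21Rik2. The flanking rows Gnb2l1, a ribosome-associated scaffold gene, and Zfp62 had log2 ratios of -0.30 (q = 0.559) and 0.04 (q = 0.977) in the authors' deposited table.

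On chromosome 3, Gbp1, now named Gbp2b, lies between Gbp3 and Gbp2 and had 8.34 FPKM in CD5 high, against 2.73 FPKM in CD5 low (log2 ratio 1.61, unadjusted p = 0.00745, q = 0.239 in the authors' deposited table). Its 3.05-fold higher value in CD5 high did not pass the test and rests on low levels. With Gbp3, it made a pair of adjacent rows with higher values in CD5 high inside a cluster whose outer members Gbp7 and Gbp2 had lower ones. The rows flanking this cluster, Pdlim5 and the general transcription factor gene Gtf2b, had log2 ratios of -0.18 (q = 0.878) and -0.15 (q = 0.917) in the authors' deposited table. On chromosome 5, Gbp8 was the most abundant GBP gene of the table with 121 FPKM in CD5 high, against 152 FPKM in CD5 low (log2 ratio -0.33, q = 0.566 in the authors' deposited table), and 21.2% of its 50-base words occur in other genes. Its neighbour Gbp9 had 31.5 FPKM in CD5 high and 30.5 FPKM in CD5 low (log2 ratio 0.04, q = 0.974 in the authors' deposited table). Lrrc8c, an anion channel subunit gene on the far side of Gbp6, had a log2 ratio of -0.08 (q = 0.953), and Isoc1 and Dctn4, on either side of Iigp1 on chromosome 18, had -0.33 (q = 0.802) and 0.03 (q = 0.982), all in the authors' deposited table.

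**Figure D3:**
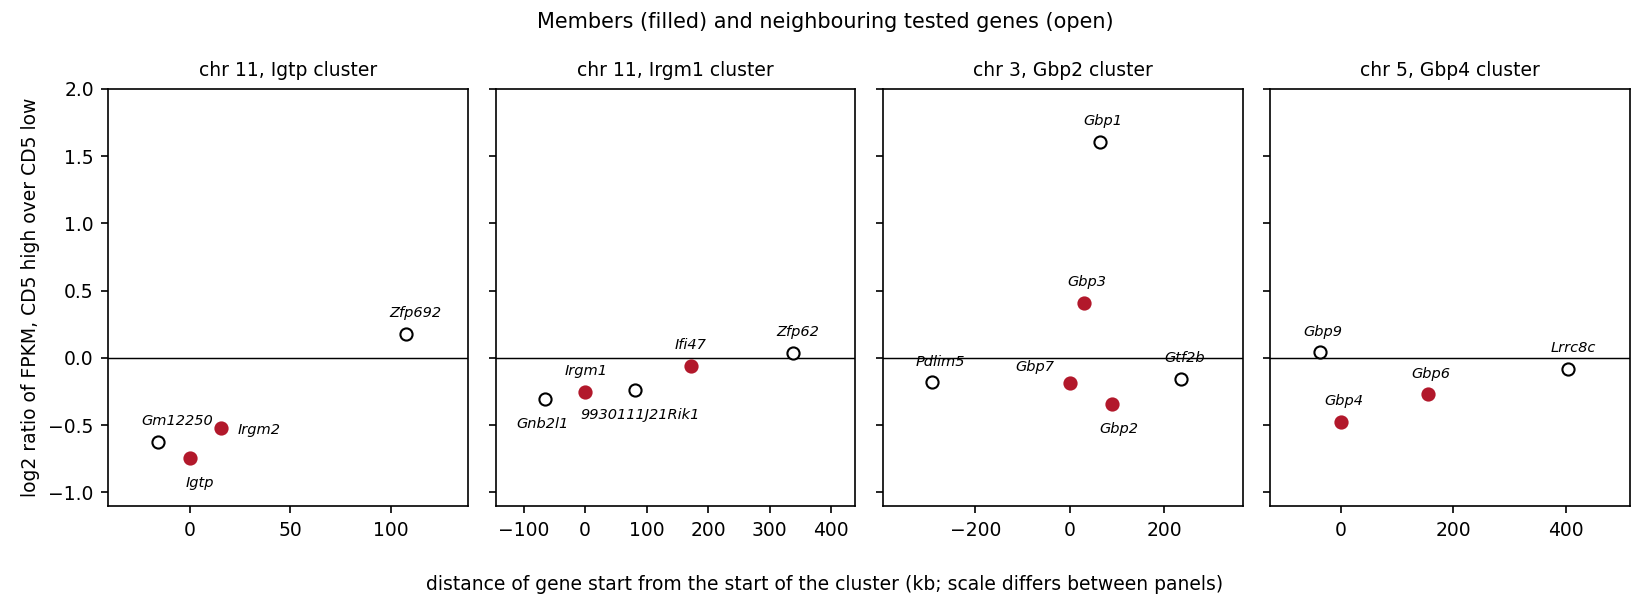
Log2 ratio of FPKM, CD5 high over CD5 low, against the distance in kb from the start of each cluster, for the members other than Iigp1 (filled) and the other tested rows in or next to the cluster (open), with a scale of its own in each panel. Iigp1 and the rows beside it are not drawn. Gm12250, Igtp and Irgm2 lie together between -0.75 and -0.52, while Gbp3 and Gbp1 lie above 0 between Gbp7 and Gbp2.

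Of 30 further names of the IRG, GBP, GVIN and Mx families, older aliases among them, 7 had a tested row, and none passed the authors' test. Besides the genes above these were Irgc1 and Mx2. Irgc1, an IRG gene known mainly from testis that interferon does not induce, had 10.6 FPKM in CD5 high and 16.03 FPKM in CD5 low (q = 0.623 in the authors' deposited table). Mx2, of the antiviral dynamin-like GTPase family, is listed by GENCODE M21 as a polymorphic pseudogene. It had 9.68 FPKM in CD5 high and 7.58 FPKM in CD5 low (q = 0.888 in the authors' deposited table). In these 7 rows 4 values were lower and 3 higher in CD5 high, with a median log2 ratio of -0.24, and Gm12250 and Gbp1, on opposite sides of 0, had an unadjusted p under 0.05. Taking members and these genes together, as 17 tested rows of related GTPases, 13 had lower values in CD5 high, beside 50.9% of all tested rows. Igtp was the single gene past q under 0.05. Of the 13, 9 were members, chosen with this comparison known, so the count is not evidence for a shift of the family.

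The pathway above the members was measured in 17 of 19 listed genes, of which 1 rose and 0 fell. The one that rose was Ptpn11, which encodes the phosphatase Shp2, with 58.2 FPKM in CD5 high, against 31.9 FPKM in CD5 low in the authors' deposited table (a 1.82-fold rise with q = 0.0110). The cytokine gene Ifng itself had the higher value in CD5 high, 98.3 FPKM against 69.8 FPKM in CD5 low (unadjusted p = 0.0408, q = 0.457 in the authors' deposited table). The receptor chain gene Ifngr1 had the lower one, 71.1 FPKM in CD5 high against 99.2 FPKM in CD5 low (unadjusted p = 0.0210, q = 0.370 in the authors' deposited table). Its partner Ifngr2 had 12.6 FPKM in CD5 high and 17.3 FPKM in CD5 low (q = 0.692 in the authors' deposited table). Ligand and receptor values therefore lay on opposite sides, and none of the 3 passed the test.

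Among the kinases and factors downstream, Irf1 had 151 FPKM in CD5 high and 181 FPKM in CD5 low (log2 ratio -0.26, q = 0.679) in the authors' deposited table. The kinase genes lay on both sides, with Jak1 at 131 FPKM in CD5 high and 153 FPKM in CD5 low (q = 0.690) and Jak2 at 46.6 FPKM in CD5 high and 37.7 FPKM in CD5 low (q = 0.627) in the authors' deposited table. Irf9, of the complex that carries type I interferon signals, had 40.9 FPKM in CD5 high and 44.7 FPKM in CD5 low (q = 0.894), and Irf8 had 8.67 FPKM in CD5 high and 7.93 FPKM in CD5 low (q = 0.946), in the same deposited table of the authors. Inhibitors of the pathway lay on both sides, with log2 ratios of 0.17 for Socs1 (q = 0.891), 0.08 for Ptpn2 (q = 0.964), 0.28 for Ptpn1 (q = 0.638), -0.14 for Socs3 (q = 0.896), -0.37 for Pias1 (q = 0.607) and -0.06 for Ptpn6 (q = 0.961) in the authors' deposited table. None of these passed the test, and over the 17 genes 9 values were lower and 8 higher in CD5 high with a median log2 ratio of -0.06.

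Other interferon-related genes differed from one another in their values. In class I antigen processing, 0 of 17 tested genes passed the test, the median log2 ratio was -0.02 and the ratios ran from -0.46 to 0.18. The gene with an unadjusted p under 0.05 in that list was the chaperone gene Pdia3, at 38.8 FPKM in CD5 high and 53.5 FPKM in CD5 low (p = 0.0365, q = 0.440 in the authors' deposited table). The type I interferon list had 35 tested genes. It holds interferon-stimulated genes together with the receptor genes Ifnar1 and Ifnar2 and the receptor kinase gene Tyk2. Of the 35, 0 passed, 25 had lower values in CD5 high and the median log2 ratio was -0.26. Over those with a mean of at least 20 FPKM the median was -0.12, a filter under which the members' median was -0.25. Lower values with an unadjusted p under 0.05 were those of the T cell growth regulator Slfn1 (log2 ratio -0.77, q = 0.0845), Ly6a, which encodes Sca-1 (-0.62, q = 0.159), the RNA sensor gene Ddx58 (-0.72, q = 0.175) and the ISG15 protease gene Usp18 (-1.31, q = 0.457), in the authors' deposited table. Higher values with such a p were those of Ifi27l2a (log2 ratio 0.59, q = 0.0975), Ly6e (0.51, q = 0.363) and the kinase gene Tyk2 (0.55, q = 0.435) in the authors' deposited table.

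A list of genes tied to the placing of IRG proteins and GBPs on vacuoles, made up of autophagy and ubiquitin-like conjugation genes, ubiquitin ligases and the galectin genes Lgals3 and Lgals8, had 17 tested genes. None passed the authors' q-value limit or an unadjusted p under 0.05, and the median log2 ratio was 0.04. By the mean of both groups the most abundant were Gabarap, at 136 FPKM in CD5 high and 131 FPKM in CD5 low (q = 0.966), and Gabarapl2, at 134 FPKM in CD5 high and 112 FPKM in CD5 low (q = 0.753), in the authors' deposited table. The Gimap genes, GTPases of lymphocyte survival that are no close relatives of the members, had 0 of 8 past the q-value limit or an unadjusted p under 0.05 and a median of 0.01. By the same mean the most abundant were Gimap6, at 209 FPKM in CD5 high and 259 FPKM in CD5 low (q = 0.598), and Gimap4, at 217 FPKM in CD5 high and 244 FPKM in CD5 low (q = 0.850), in the authors' deposited table. Whether the members differ from any of these lists was not tested.

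**Figure D4:**
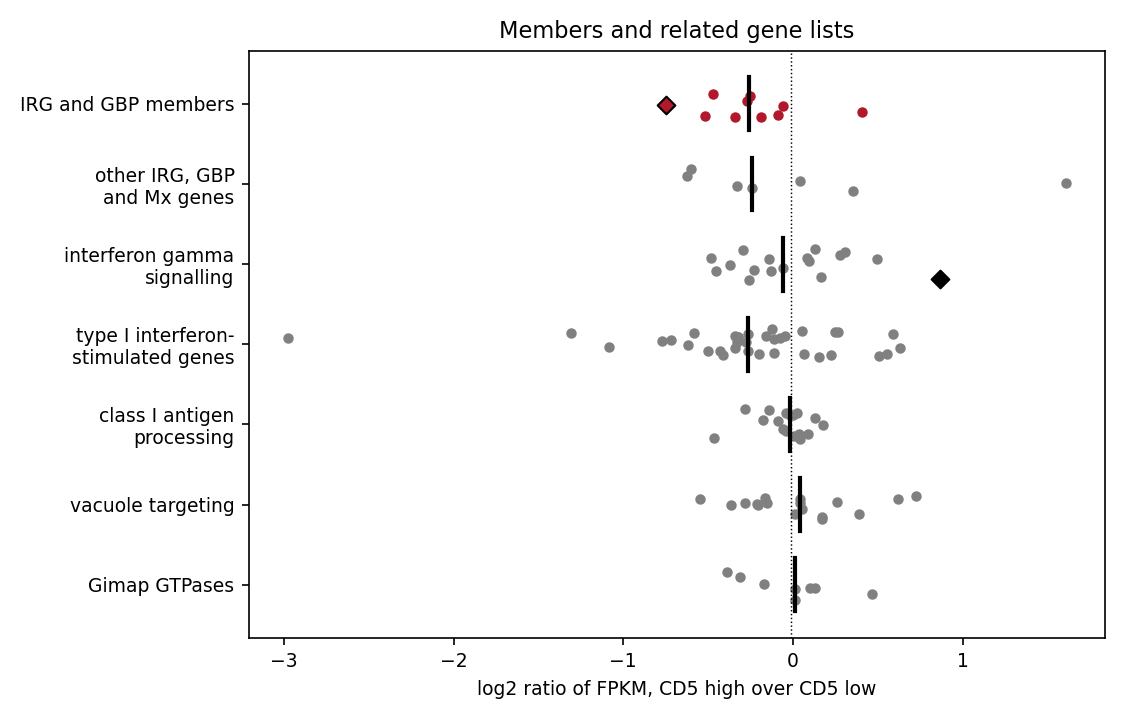
Log2 ratio of FPKM, CD5 high over CD5 low, for each tested gene (points) of the members (red) and of 6 other lists (grey), with the list median as a bar, the median of all tested rows as a dotted line and diamonds for genes with an authors' q-value under 0.05. The diamonds are Igtp, at -0.75, and Ptpn11, at 0.87.

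Markers of other cells moved with the groups beside these values. The T cell identity genes were present at like levels, with Cd3g at 857 FPKM in CD5 high and 744 FPKM in CD5 low (q = 0.740) and Cd3d at 576 FPKM in CD5 high and 558 FPKM in CD5 low (q = 0.961) in the authors' deposited table, and no CD8 marker had a tested row. Of the macrophage, monocyte and dendritic cell list, whose cells also express IRG and GBP genes, 8 of 25 names were tested and 5 fell in CD5 high. The summed level was 634 FPKM in CD5 high and 1234 FPKM in CD5 low. The 5 were Fcer1g, listed at 0 in CD5 high, and the class II antigen presentation genes Cd74, H2-Aa, H2-Ab1 and H2-Eb1. Cd74 alone had 168 FPKM in CD5 high and 530 FPKM in CD5 low. The others did not pass the authors' test. Ctss had 144 FPKM in CD5 high and 133 FPKM in CD5 low, Cst3 242 and 295 FPKM, and Apoe 6.65 and 11.9 FPKM. Of the regulatory T cell list, 8 of 11 names, an older alias among them, were tested and 5 rose. The sum was 1068 FPKM in CD5 high and 513 FPKM in CD5 low. The 5 were Ctla4, Folr4, Ikzf2, Tnfrsf4 and Tnfrsf18. Foxp3 itself had 12.3 FPKM in CD5 high and 1.10 FPKM in CD5 low and did not pass (q = 0.298 in the authors' deposited table). The natural killer list had 2 of 8 tested (12.8 FPKM summed in CD5 high and 33.8 FPKM in CD5 low), the B cell list 1 of 8 (14.0 FPKM in CD5 high and 10.96 FPKM in CD5 low) and the endothelial and stromal list 1 of 13 (16.6 FPKM in CD5 high and 21.3 FPKM in CD5 low), none past the q-value limit. Pancreatic genes summed to 2794 FPKM in CD5 high and 321 FPKM in CD5 low for 5 of 16 endocrine markers, and to 2088 FPKM in CD5 high and 2259 FPKM in CD5 low for 23 of 32 exocrine ones, of which 1 fell. The endocrine sum was carried by the insulin genes Ins2, at 2395 FPKM in CD5 high and 26.7 FPKM in CD5 low (q = 0.193), and Ins1, which rose, at 368 FPKM in CD5 high and 4.003 FPKM in CD5 low (q = 0.0186), per the authors' deposited table. The somatostatin gene Sst, at 6.86 FPKM in CD5 high and 263 FPKM in CD5 low (q = 0.0714), and the pancreatic polypeptide gene Ppy, at 5.63 FPKM in CD5 high and 19.4 FPKM in CD5 low (q = 0.616), lay the other way in the authors' deposited table. The part of any of these cells in the values of Igtp and the other members was not tested.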

How the data were processed

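RNA was measured in 4 libraries, 2 of CD5 high and 2 of CD5 low effector T cells. Per the labels' protocols, cDNA from detergent-lysed cells was amplified and made into libraries with Nextera XT, a kit that does not mark strand. The submitters' processing notes name TopHat 1.0.0, Cufflinks and mm10. None of these sources names the authors' gene annotation.

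The authors deposited 1 table with, per gene, an FPKM value for each group, a score (the test statistic), a log2 fold change, a p-value and a q-value; per the file headers, these are the columns of a Cuffdiff gene test. Of 7404 gene rows, 7252 had a test; 1 further line is not analysed here. The depth is unknown, and the p-values may measure technical spread only, since the labels do not name separate animals. No test was fitted here: values per library, which a limma fit would need, were not analysed.

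The members and lists were chosen with earlier results of these data known. Named are all members, the other tested genes of these families, fixed genes of interferon gamma signalling (1 of them is not reported here), genes of other lists with an unadjusted p under 0.05 (of marker lists, the summed levels stand for most of these), or else the 2 most abundant, and the tested rows next to each cluster. Clusters are members less than 1 Mb apart. Shared sequence was counted as 50-base words of GENCODE M21 protein-coding transcripts found in transcripts of other genes. Older symbols were matched through the RefSeq gene table (GRCm38.p6), and promoters of 7 of 10 members were analysed. Chromosome 18, on which Iigp1 lies, was left out of the members' promoters but not of the share over all promoters. Promoters were aligned locally with a match score of 2, a mismatch score of -3 and gap scores of -5 and -2. Python 3.11.15, pandas 2.3.3 and matplotlib 3.10.9 were used. The adjustment and scaling steps were tested on simulated data.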

Additional observations from a re-analysis of the deposited data

How the results depend on the processing

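With median scaling and with quantile normalization, all 10 members kept the sign of their log2 ratio. Each time 9 of 10 had the lower value in CD5 high. Pseudocounts of 1 and 10 FPKM cannot change a sign, because the same amount is added to both values, so they are no test of direction. Median scaling moves every ratio by the same amount. The members' median ran from -0.28 with median scaling to -0.19 with a pseudocount of 10 FPKM, which also drew Irgm2 to -0.32 and Gbp3 to 0.23, as a pseudocount does to low values. With a mean of at least 20 FPKM, 7 members remained, all lower in CD5 high, and leaving out Igtp, an alternative chosen after seeing the data, gave -0.25. The count of members past the limit was 1 lower and 0 higher at a q-value under 0.05 and under 0.10, and after renewed adjustment over 3703 rows with a mean of at least 20 FPKM (Igtp 0.00712) or over 7204 rows without the marker genes of other cell types, regulatory T cells among them (Igtp 0.0144); at an unadjusted p under 0.05 it was 2 lower and 0 higher. The median of the Gimap list, 0.0133, changed sign to -0.0061 with median scaling, by the amount that this setting takes from every ratio. With quantile normalization it was -0.0108. The median of all tested rows, -0.0086, changed sign to 0.0023 at a mean of at least 20 FPKM. The cause of the changes with quantile normalization and with the filter was not tested. The type I interferon list moved to -0.12 with that filter. No paired analysis was possible because libraries were combined into 1 value a group, and for the same reason the fits that leave out a library were not run. The unknown depth and the lack of values per library limit every comparison.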
